A study of Mus musculus with 6 samples.

Results

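Cdkn1a, Cdkn1b and Cdkn1c make up the CIP/KIP family of cell cycle inhibitors and were followed here in the lungs of aged mice. They were chosen by gene symbol, as 3 of the 31054 features in each count matrix, and all 3 were found once. The family encodes the proteins p21, p27 and p57. Each binds complexes of a cyclin with a cyclin-dependent kinase and blocks the kinase, which holds a cell before it copies its DNA. They differ in what controls them. Cdkn1a is a classic target of p53 and is also raised by stress and by senescence, p27 is kept high in resting cells and is controlled largely by protein breakdown, and Cdkn1c is an imprinted gene known for its high level in developing and quiescent mesenchyme.

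Lungs of male C57BL/6 mice aged 21 months were dissociated and sequenced cell by cell with the 10x GEM-X 3′ kit, which reads the 3′ ends of messages, with 1 library per mouse. Mice of the p16-DTR group (3 libraries) carried p16-CreERT2/R26-LSL-DTR, so that Cre driven by the p16 promoter can switch on the diphtheria toxin receptor. Controls (3 libraries) were p16-CreERT2 mice, with the same Cre but no receptor allele. Mice of both groups were given tamoxifen on 5 days, diphtheria toxin on another 5 days after a pause of 2 weeks, and a further 2 weeks to recover. Liberase-digested lungs were sorted, and 20000 CD45− cells were mixed with 9000 CD45+ cells for each library, so the mix of immune and other cells was set by the sort. The receptor marks cells by p16 promoter activity and not by cell type.

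The 6 libraries held 13025 to 16884 retained cells each, with a median of 17091 to 18495.5 UMIs (unique molecular identifiers, which count RNA molecules) per cell. Between 59 and 94 cell barcodes were shared by any pair of libraries. Cells were gated by marker genes into 33 classes, of which 18 had at least 50 cells in every library, and the markers of lung epithelium, endothelium, fibroblasts and immune cells were all found. Between 23.4% and 30.6% of retained cells per library were given no class. Cdkn2a, which encodes p16, was at 7.10, 8.57 and 7.31 CPM over all cells of the p16-DTR-labelled libraries and at 1.15, 2.60 and 2.84 CPM in controls, so it was higher in the libraries of the group meant to lose p16-high cells. An entry for tdTomato, a red fluorescent reporter that the labels do not name, had 89, 74 and 94 UMIs in the p16-DTR-labelled libraries and 0 in each control, where a count of 0 allows up to 3. Both differences split the libraries as the labels do, but neither shows which set carried the receptor allele, and the direction of the Cdkn2a UMIs goes against the design. UMIs were counted per gene from 3′ ends, and p16 itself was not measured. Whether the p16-CreERT2 allele, which both groups carry, affects how Cdkn2a messages are counted was not tested, and this touches every Cdkn2a level and the split by Cdkn2a UMIs below. The group names were therefore taken from the labels alone, and p16-DTR below means the libraries so labelled. Every signed difference between the groups would turn if the names were exchanged, while ratios within a library would not. Levels are given as CPM, the gene's UMIs in each 1000000 UMIs of the cells summed. Every difference between the groups runs from control to p16-DTR.

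The 3 genes lie on 3 chromosomes of GRCm38 and share a short coding segment that binds the cyclin. Cdkn1a (ENSMUSG00000023067) spans chr17:29090976-29100727 on the plus strand and overlaps AC167363.2 on the other strand. Cdkn1b (ENSMUSG00000003031) spans chr6:134920401-134925513 on the plus strand and overlaps no other gene. Cdkn1c (ENSMUSG00000037664) spans chr7:143458339-143461050 on the minus strand and overlaps Gm44732 on the other strand, which had 52 UMIs over the 6 libraries. The cyclin-binding segment is shown because it is the feature that joins the family. It was found in 1 place in each coding sequence by searching, in frame, for codons of arginine, any residue, leucine, phenylalanine and glycine. The 30 bases below come from a coding exon of the GENCODE M21 transcripts Cdkn1a-201, Cdkn1b-201 and Cdkn1c-201, on the gene's own strand, with the 15 bases of the 5 matched codons in capitals.
Cdkn1a, chr17:29098453-29098482: gtgtgcCGTTGTCTCTTCGGTcccgtggac
Cdkn1b, chr6:134921001-134921030: gcctgcAGAAATCTCTTCGGCccggtcaat
Cdkn1c, chr7:143460588-143460617: gcctgcCGCAGCCTCTTCGGGcctgtagac
Cdkn1a and Cdkn1c shared 22 of the 30 bases, Cdkn1b and Cdkn1c shared 21, and Cdkn1a and Cdkn1b shared 19. Within the capitals, Cdkn1a and Cdkn1c had 11 of 15 bases in common and each of the other pairs had 10.

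Each gene had its highest level in a different compartment of the lung. Cdkn1a was highest in aerocytes, the thin capillary cells of gas exchange. Cdkn1b was highest in neutrophils and other circulating leukocytes, and Cdkn1c in pericytes, the mural cells wrapped around capillaries. Between the highest and the lowest of the 18 classes the mean level differed 58.0-fold for Cdkn1a, 6.41-fold for Cdkn1b and 476-fold for Cdkn1c. These levels describe both groups together, and the order of 2 neighbouring classes is called different only where all 6 libraries had it.

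**Figure D1:**
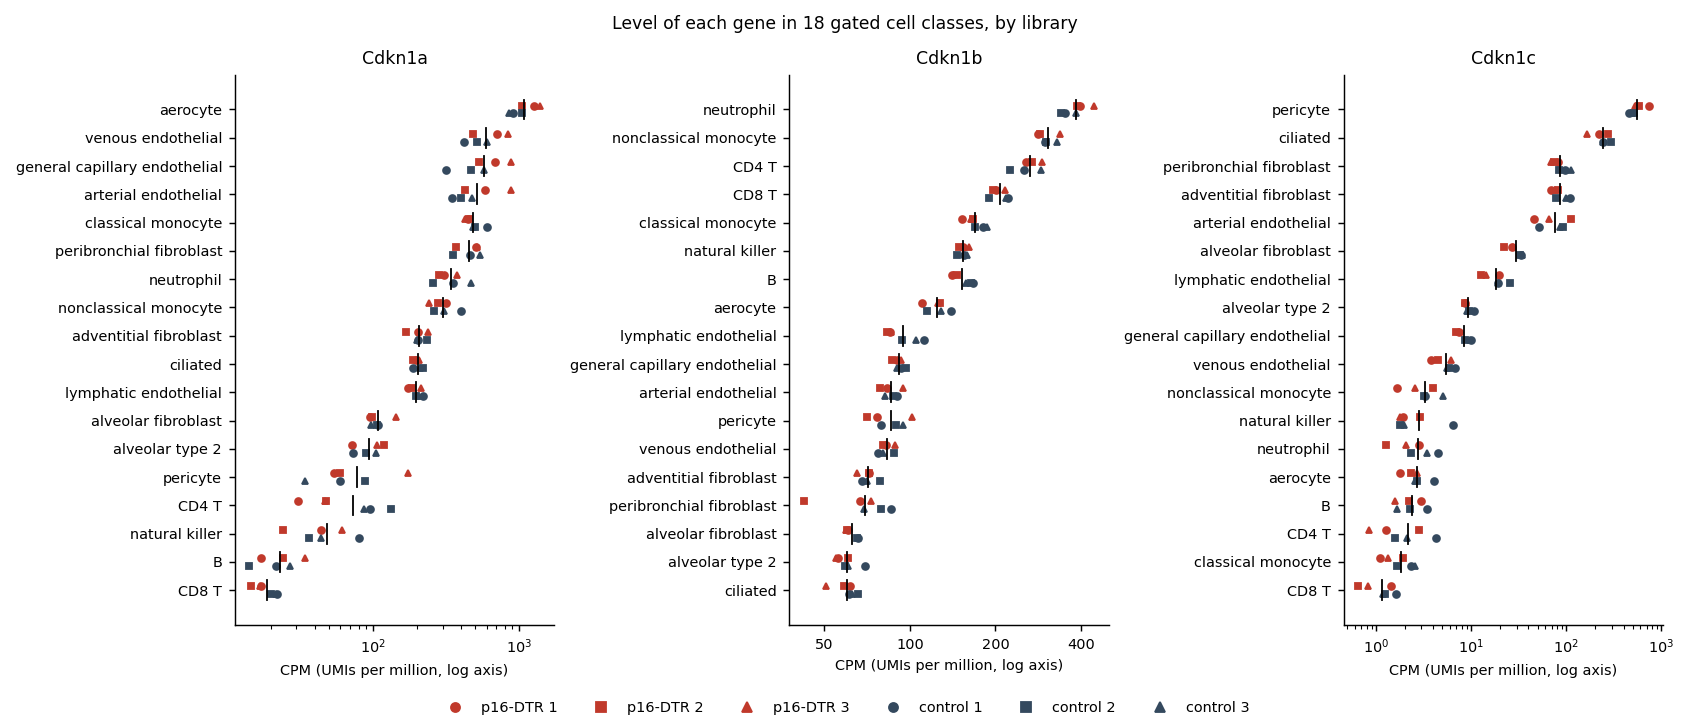
CPM (log axis) of Cdkn1a, Cdkn1b and Cdkn1c in 18 gated cell classes, 1 point per library, with p16-DTR in red, controls in dark blue and a black line at the mean of 6 libraries. Aerocytes lead for Cdkn1a (853 to 1391 CPM), neutrophils for Cdkn1b (339 to 445 CPM) and pericytes for Cdkn1c (459 to 734 CPM).

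Cdkn1a in aerocytes was at 1264, 1054 and 1391 CPM in the p16-DTR-labelled libraries and at 906, 1053 and 853 CPM in controls. All 6 libraries placed aerocytes above venous endothelium. Venous, general capillary and arterial endothelium followed with means of 596, 578 and 520 CPM (SD 155, 193 and 196, n = 6), and their order was not the same in all libraries. Classical monocytes (488 ± 63.9) and peribronchial fibroblasts (457 ± 79.4) came next and did not differ beyond their spread. Lymphatic endothelium stood apart from the blood endothelium at 199 ± 17.1 CPM. The lowest levels were in natural killer cells (48.4 ± 19.8), B cells (23.1 ± 7.11) and CD8 T cells (18.7 ± 2.98). Of the 17 neighbouring pairs in the order, 5 held in all 6 libraries. After every cell was thinned to 5000 UMIs, 94.0% ± 3.05 of aerocytes and 5.05% ± 1.41 of CD8 T cells had a Cdkn1a UMI (SD, n = 6), at median depths of 21727.5 and 18394.5 UMIs, and without thinning 96.5% and 15.7% had one. No class was taken to lack Cdkn1a or Cdkn1b, so the lowest class stands in for a background share.

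Cdkn1b had a flatter profile, with the leukocytes above every other class. Neutrophils held 398, 388 and 445 CPM in the p16-DTR-labelled libraries and 352, 339 and 384 CPM in controls. Nonclassical monocytes followed with 306 ± 22.3 CPM, then CD4 T cells with 264 ± 25.5 and CD8 T cells with 207 ± 13.2 (SD, n = 6), and each of these steps held in all 6 libraries. Classical monocytes, natural killer cells and B cells lay at means of 170, 154 and 153 CPM. Aerocytes were the highest class outside the leukocytes, at 124 ± 10.6 CPM, and stood above lymphatic endothelium in all 6 libraries. The lowest means were 60.0 CPM in alveolar type 2 cells and 60.0 CPM in ciliated cells, which did not differ beyond their spread. In thinned cells 75.9% ± 3.36 of neutrophils had a Cdkn1b UMI, although neutrophils had the lowest median depth of the 18 classes, 9493 UMIs. The lowest share was 23.3% ± 2.48, in alveolar type 2 cells (SD, n = 6).

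Cdkn1c was restricted to a few classes. Pericytes held 734, 585 and 534 CPM in the p16-DTR-labelled libraries and 459, 513 and 488 CPM in controls. Ciliated cells of the airway were second, with 223, 275 and 166 CPM against 244, 293 and 242 CPM. Both steps, from pericytes to ciliated cells and from ciliated cells to peribronchial fibroblasts, held in all 6 libraries. Peribronchial fibroblasts (86.1 ± 15.5), adventitial fibroblasts (85.4 ± 14.99) and arterial endothelium (75.3 ± 25.3) formed a second tier, and alveolar fibroblasts had 29.5 ± 4.79 CPM (SD, n = 6). In thinned cells 83.7% ± 1.89 of pericytes and 47.1% ± 3.71 of ciliated cells had a Cdkn1c UMI, against 0.680% ± 0.234 of B cells and 0.869% ± 0.500 of CD4 T cells (SD, n = 6). Those lymphocytes, taken as the comparison for a low background, had median depths of 13145 and 14754 UMIs against 16906 in pericytes and 39660 in ciliated cells, and without thinning the shares were 92.2%, 80.0%, 2.46% and 2.49%. The level of free RNA in the droplets was not measured. The aerocytes, highest for Cdkn1a, had 2.69 ± 0.746 CPM of Cdkn1c, in the range of the leukocytes (1.16 to 3.30 CPM).

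The smaller classes widened this picture. Alveolar macrophages held 285 to 412 CPM of Cdkn1a and type 2 conventional dendritic cells 313 to 446 CPM. Gamma-delta T cells had 130 to 219 CPM of Cdkn1a, above the 14.5 to 21.9 CPM of CD8 T cells in every library. Mesothelial cells (33.3 to 110 CPM) and smooth muscle (32.5 to 42.5 CPM) held Cdkn1c. Across the 18 classes the profile most like that of Cdkn1a, by Pearson correlation of log2(mean CPM + 1) among 8022 genes with a mean of at least 20 CPM, was that of Midn (r = 0.93), followed by Rab1a, Itm2b, Mapk3 and Gm38399 (0.86 to 0.85). For Cdkn1b the closest were Vamp4, Cyb5r4, Cnppd1, Capza1 and Grk2, all with r = 0.93. For Cdkn1c they were Gpc4 (0.91), Arhgap32 (0.88), Ppp2r3a (0.87), Dtx3 and Glt8d1 (both 0.85). The 18 points of each correlation share the same 6 libraries.

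Summed over all cells, Cdkn1a had 355, 305 and 417 CPM in the p16-DTR-labelled libraries and 239, 308 and 291 CPM in controls. The groups overlapped, since p16-DTR replicate 2 lay below control replicate 2. Cdkn1b had 116, 117 and 132 CPM against 110, 114 and 119 CPM, which also overlapped. Cdkn1c had 23.1, 22.7 and 17.8 CPM against 37.1, 33.1 and 31.7 CPM, and here all 3 p16-DTR libraries lay below all 3 controls. In edgeR's quasi-likelihood test with Benjamini-Hochberg adjustment over 21630 genes, the log2 fold change was 0.41 for Cdkn1a (SE 0.14, adjusted p = 0.176), 0.14 for Cdkn1b (SE 0.06, adjusted p = 0.250) and −0.63 for Cdkn1c (SE 0.12, adjusted p = 0.127). None of the 3 passed the threshold of 0.05, and in this test 0.0% of genes did (5043 had an unadjusted p under 0.05). DESeq2 called Cdkn1c (log2 fold change −0.63, adjusted p = 6.07e-04) and neither of the others, in a test that called 13.9% of genes. In these whole-library sums fewer cells of a type and less RNA per cell cannot be told apart.

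The shares of the classes that held these UMIs are given beside these values, and were not tested. Pericytes made up 0.427% ± 0.0138 of cells in p16-DTR and 0.902% ± 0.213 in controls, with no overlap, and held 12.1% and 11.5% of all Cdkn1c UMIs. Ciliated cells, second in Cdkn1c level, made up 0.813%, 0.8290% and 0.586% of cells in p16-DTR and 0.8292%, 1.37% and 1.13% in controls. Those groups just failed to overlap, and the ciliated share of Cdkn1c UMIs is not given here. Alveolar fibroblasts, which held 22.8% and 25.02% of the Cdkn1c UMIs, made up 15.6% ± 3.45 and 22.1% ± 6.02 of cells (SD, n = 3), which overlapped. General capillary endothelium held 27.2%, 21.5% and 25.6% of Cdkn1a UMIs in p16-DTR and 9.51%, 21.2% and 19.96% in controls, with no overlap. Its shares of cells, 15.5% and 12.99% on average, did overlap. When every library was given the same mix of classes, Cdkn1c was at 25.2, 25.7 and 22.6 CPM against 31.5, 28.9 and 29.7 CPM, a log2 ratio of −0.29 (exact two-sided permutation test over libraries, p = 0.1, the smallest that 3 against 3 can give). With each library's own mix and the mean level of every class, the log2 ratio was −0.37. The groups did not overlap in either set of values.

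For Cdkn1a the same-mix log2 ratio was 0.29 (exact permutation p = 0.3) and the own-mix ratio 0.08. For Cdkn1b the same-mix ratio was −0.05 (exact permutation p = 0.3) and the own-mix ratio 0.13 (exact permutation p = 0.1), with own-mix values of 120, 121 and 127 CPM against 108, 115 and 114 CPM that did not overlap. The all-cell sign of Cdkn1b thus turned when the shares of the classes were held fixed. The mix inside a class was not held fixed, nor was that inside the 23.4% to 30.6% of cells given no class.

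**Figure D2:**
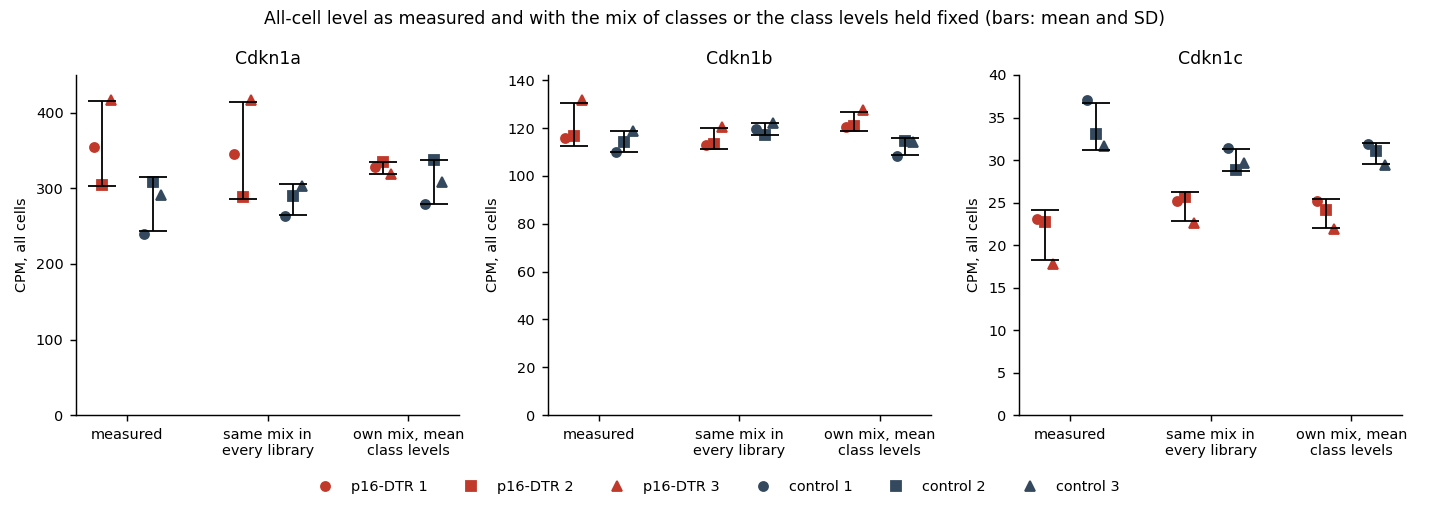
All-cell CPM of the 3 genes per library as measured, with the same mix of classes in every library, and with each library's own mix but the mean level of each class (bars, mean and SD of 3 libraries; p16-DTR red, controls dark blue). For Cdkn1c the p16-DTR libraries lie below the controls in all 3 settings, and for Cdkn1a the groups overlap in all 3.

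Within classes, Cdkn1a in CD4 T cells was the only member and class to pass the threshold. Cdkn1a was tested in 18 classes and called in 1, lower in CD4 T cells. Cdkn1b was tested in 18 and called in none, and Cdkn1c was tested in 16 and called in none. Over all genes and the 18 classes, 0.664% of pairs of a gene and a class were called. The sign of the log2 fold change was mixed for Cdkn1a, with 9 classes above 0 and 9 below. Cdkn1b was below 0 in 15 of 18 classes and Cdkn1c in 15 of 16. The classes come from the same mice, so these signs are not independent. How often other genes had as many classes of the same sign was not computed. Groups whose 3 libraries did not overlap were found for Cdkn1a in 1 class higher and 3 lower, for Cdkn1b in 1 higher and 4 lower, and for Cdkn1c in 1 higher and 4 lower. Over all pairs of a gene and a class, 7.94% did not overlap with p16-DTR higher and 11.5% with p16-DTR lower.

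**Figure D3:**
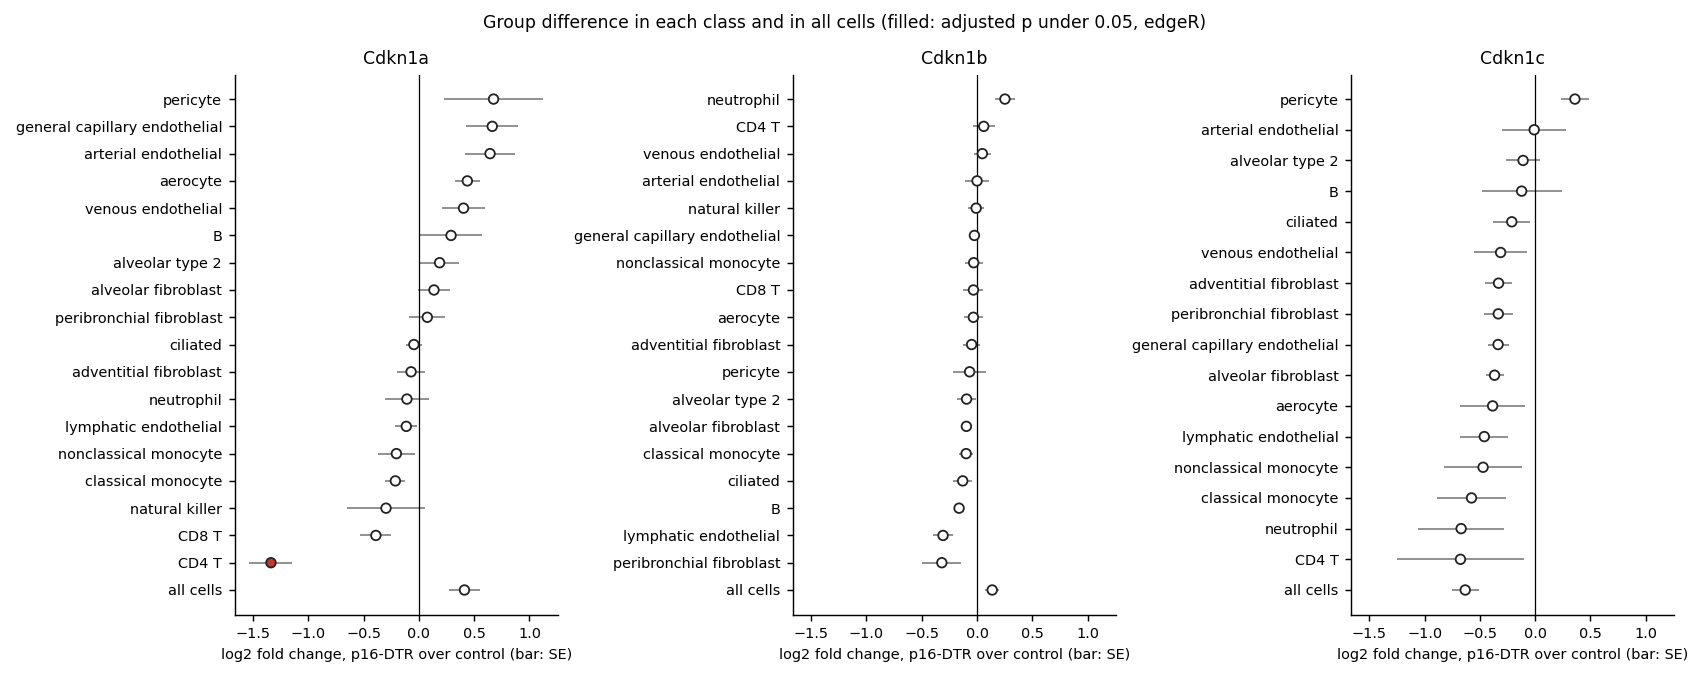
Log2 fold change of p16-DTR over control, with its standard error, for each gene in every tested class and in all cells, ordered within a gene. The only filled point is Cdkn1a in CD4 T cells (−1.34), and the blood endothelial classes are among the highest points of Cdkn1a. The highest point of Cdkn1a (0.67) is a class outside the blood endothelium.

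In CD4 T cells, the helper and regulatory T lymphocytes, Cdkn1a fell. It was at 30.6, 48.1 and 46.9 CPM in the p16-DTR-labelled libraries and at 95.2, 133 and 86.9 CPM in controls. No p16-DTR library reached the lowest control. The log2 fold change was −1.34 (SE 0.19, edgeR adjusted p = 0.00851 over 11429 genes, of which 5.23% were called), on 868 and 846 cells. Leaving out each library in turn kept the call, with adjusted p between 0.0150 and 0.0314 in edgeR. Cdkn1b in the same cells was at 256, 268 and 291 CPM against 252, 224 and 290 CPM (log2 fold change 0.06, edgeR adjusted p = 0.807). The difference between the change of Cdkn1a in CD4 T cells and that in B cells, the most numerous other leukocyte class, was −1.61 on the log2 scale and did not pass (edgeR interaction, adjusted p = 0.0650, with 1.53% of 13810 genes called). It passed without control replicate 2 (−1.19, edgeR adjusted p = 0.0470) or control replicate 3 (−1.98, edgeR adjusted p = 0.0296). Without any other single library it did not pass and lay further from the threshold (edgeR adjusted p = 0.137 to 0.199). It was −0.37 (edgeR adjusted p = 0.679) without the cells described next.

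The fall went with a subset of the CD4 T cells. Cells with a UMI of Il17a, Il17f or Il23r, a pair of cytokines and a receptor of interleukin 17-producing T cells, made up 12.9%, 2.59% and 6.80% of CD4 T cells in p16-DTR and 39.2%, 45.3% and 33.4% in controls. They held 42.3%, 5.43% and 10.4% of the Cdkn1a UMIs of the class in p16-DTR and 73.3%, 85.9% and 71.1% in controls. In these cells alone Cdkn1a was at 84.7, 69.0 and 63.2 CPM against 179, 242 and 166 CPM, with no overlap. The log2 fold change there was −1.44 (SE 0.23, edgeR adjusted p = 0.0247, with 1.01% of genes called), on 26, 7 and 27 p16-DTR cells, fewer than the minimum of 50 per library set for a class, against 329 control cells in all, and these markers and this fit were chosen after the class result was seen. Without these cells Cdkn1a was at 20.9, 47.3 and 45.6 CPM against 41.7, 35.9 and 40.0 CPM, the groups overlapped, and the log2 fold change was −0.04 (edgeR adjusted p = 0.970, with 0.507% of genes called). The sign of this small difference turned with single libraries. As a difference of mean log2 CPM it was −0.14, and it was 0.25 without p16-DTR replicate 1, while leaving out p16-DTR replicate 2 gave −0.34. Cdkn1b in the marked cells was at 256, 207 and 246 CPM against 206, 168 and 210 CPM, which overlapped (edgeR adjusted p = 0.542). The call in CD4 T cells therefore did not stand once the cells with these 3 markers were removed.

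A finer split of the subset left few p16-DTR cells in each part. Cells with a UMI of Il17a or Il17f held 77.8, 26.8 and 25.6 CPM of Cdkn1a in p16-DTR and 246, 257 and 201 CPM in controls, with no overlap. These levels came from 14, 1 and 11 cells against 56, 93 and 76. The p16-DTR levels rest on only 18, 1 and 4 Cdkn1a UMIs and are imprecise. Cells with Il23r alone held 91.0, 80.5 and 82.7 CPM in p16-DTR, from 12, 6 and 16 cells, and 48.0, 208 and 106 CPM in controls, which overlapped. The cells with Il17a or Il17f lay above those with Il23r alone in every control and below them in every p16-DTR library. CD4 T cells with a Foxp3 UMI, a mark of regulatory T cells, and none of the interleukin 17 markers had 8.31 to 27.1 CPM in p16-DTR and 29.8 to 68.1 CPM in controls, from 68 and 47 cells. Thinned to 5000 UMIs, 19.2%, 42.9% and 22.2% of the interleukin 17-marked cells had a Cdkn1a UMI in p16-DTR and 48.1%, 42.2% and 41.2% in controls. These shares overlapped through p16-DTR replicate 2, which held 7 such cells. Of the other CD4 T cells 10.4% ± 1.88 in p16-DTR and 10.6% ± 5.24 in controls (SD, n = 3) had one.

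**Figure D4:**
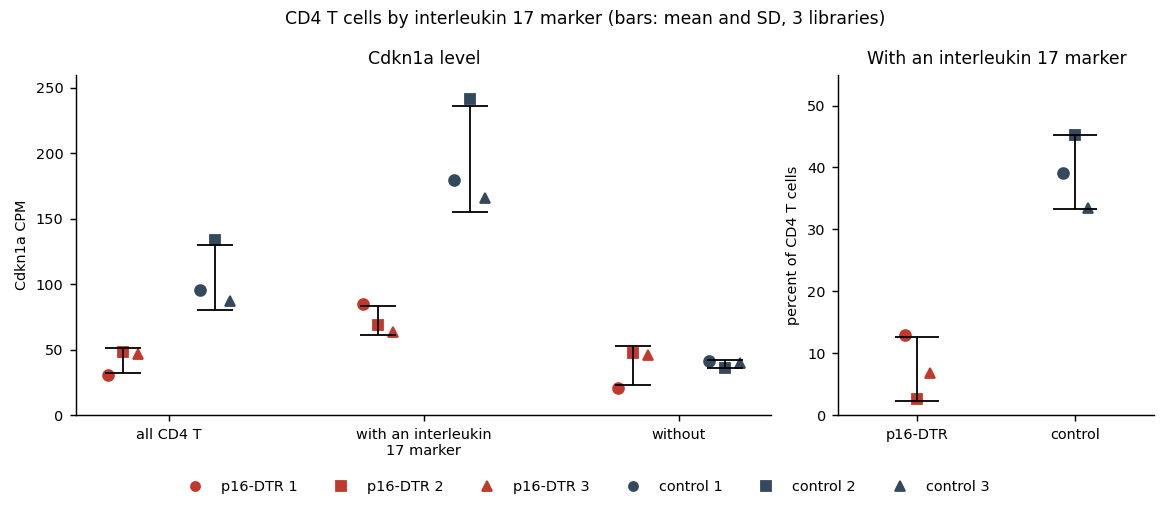
Left, Cdkn1a CPM per library in all CD4 T cells and in those with and without an interleukin 17 marker (bars, mean and SD of 3 libraries). Right, the percent of CD4 T cells with such a marker; the groups stand apart in every set but the cells without a marker.

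Genes around the CIP/KIP inhibitors were read in CD4 T cells from lists of known components, in a class where 5.23% of all 11429 tested genes were called. Of the INK4 inhibitors, which block the cyclin D kinases, 1 of 4 rose, Cdkn2a (18.9, 20.9 and 15.3 CPM against 2.00, 7.74 and 3.75 CPM, log2 fold change 1.95, edgeR adjusted p = 0.0210). None of 8 cyclins, 5 cyclin-dependent kinases and 11 genes of CIP/KIP protein turnover was called. Of 13 pocket protein and E2F genes, 1 fell, Rb1, the brake on E2F (160, 149 and 155 CPM against 202, 224 and 178 CPM, log2 fold change −0.41, edgeR adjusted p = 0.0410). Of 16 tested regulators of CIP/KIP transcription, 3 fell and none rose. Smad3, which carries TGF-beta signals, fell from a control mean of 197 CPM to 129 CPM, Klf4 from 81.3 to 43.1 CPM and Foxo1 from 286 to 205 CPM (edgeR adjusted p = 0.00849, 0.0154 and 0.0359). Of 18 tested p53 targets other than Cdkn1a, Trp53inp1 rose from 283 to 396 CPM and Plk3 fell from 78.7 to 41.5 CPM, and the median log2 fold change of the list was −0.06 beside 0.00 over all genes. None of 16 S and G2/M phase genes and 7 imprinted neighbours of Cdkn1c was called. Of 10 tested glucocorticoid-induced genes 1 fell (median 0.15). Of 12 tested dissociation stress and immediate early genes, 4 fell and none rose (median −0.36), and their summed level was 5310 to 5824 CPM against 6487 to 6973 CPM. Most of these calls were not made once the interleukin 17-marked cells were removed, which also left fewer cells. The class then had 54 called genes in place of 598, and of the 12 genes called in these lists 2 still passed, Egr1 (log2 fold change −0.995, edgeR adjusted p = 0.0343) and Cdkn2a (2.72, edgeR adjusted p = 0.0422). With each library left out in turn, 6 of the 12 passed every time (Egr1, Plk3, Junb, Smad3, Atf3 and Klf4). Rb1 passed in 1 of 6 such fits, and Fosb never did. The part of that stress level in the fall of Cdkn1a was not tested.

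Cdkn1a in the blood endothelium lay in the other direction without passing the test. This was not particular to it, since the highest log2 fold change of the 18 classes, 0.67, lay outside the blood endothelium and was not called. In general capillary endothelium, the capillary cells that are not aerocytes, Cdkn1a was at 689, 537 and 881 CPM in p16-DTR and 316, 469 and 574 CPM in controls. The log2 fold change was 0.66 (SE 0.24, edgeR adjusted p = 0.157; 0.46 to 0.88 with each library left out), and 1.73% of genes were called in that class. Arterial endothelium had 586, 425 and 886 CPM against 350, 399 and 477 CPM (0.64, edgeR adjusted p = 0.257), and edgeR called it only with no filter on low counts (adjusted p = 1.66e-05), a setting that called 3.02% of all genes in that class. Without p16-DTR replicate 3 the arterial value was 0.31, and without p16-DTR replicate 2 it was 0.86, neither of them called. Venous endothelium had 704, 487 and 839 CPM against 422, 516 and 606 CPM (0.40, edgeR adjusted p = 0.352), and leaving out p16-DTR replicate 3 gave 0.23, while the fit lacking p16-DTR replicate 2 gave 0.59. In each of the 3 classes p16-DTR replicate 3 was the highest library and the groups overlapped through p16-DTR replicate 2. In aerocytes, whose values are given above, the groups just failed to overlap, at 1054 against 1053 CPM. The log2 fold change was 0.44 (SE 0.11, edgeR adjusted p = 0.152, with 0.0232% of genes called). DESeq2 called Cdkn1a in aerocytes (adjusted p = 0.00223, with 2.54% of genes called), as did edgeR with no filter on low counts (adjusted p = 0.0370, with 1.22% of genes called). Over the 18 classes DESeq2 called 3.05% of all pairs of a gene and a class, and edgeR with no filter called 1.55%.

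A glucocorticoid, a stress and a p53 target list were read beside these endothelial values. In general capillary endothelium the 11 glucocorticoid-induced genes had a median log2 fold change of 0.62, with 2340 to 2855 CPM in sum against 1404 to 2365 CPM, but none rose and 1 fell, Errfi1. The 14 stress and immediate early genes had a median of −0.38, with 5993 to 7059 CPM against 7669 to 10363 CPM, and 2 fell, Egr1 and Ier2. Of 20 p53 targets other than Cdkn1a, Phlda3 rose from 36.0 to 47.6 CPM, and Plk2, Plk3 and Btg2 fell, from 536 to 338, from 30.3 to 18.8 and from 810 to 523 CPM. In aerocytes 1 of 20 p53 targets rose, Gdf15, a secreted stress factor, from 60.5 to 124 CPM, and the median log2 fold change of that list was 0.24 beside −0.0047 over all genes. Its summed level overlapped, at 2172 to 2379 CPM against 2254 to 2359 CPM. In venous endothelium, where 1.91% of genes were called, the stress list had a median of −0.28, with 8710 to 11150 CPM against 12246 to 14511 CPM. Zfp36, Egr1, Ier2 and Junb fell there, Hspa1b, a heat shock protein, rose from 16.1 to 34.7 CPM, and the p53 targets Plk2, Plk3 and Btg2 fell. The glucocorticoid list had a median of 0.27 there and no call. In arterial endothelium, where 0.0635% of genes were called, none of the 3 lists gave a call, with medians of −0.50 for the stress list, 0.34 for the glucocorticoid list and 0.06 for the p53 targets. The summed stress level there was 5894 to 7999 CPM against 9842 to 12661 CPM. The number of calls in general capillary and venous endothelium fell with any 1 library left out. The 263 called genes of general capillary endothelium became 9, 107 and 8 without p16-DTR replicates 1, 2 and 3 and 20, 143 and 34 without control replicates 1, 2 and 3. The 239 of venous endothelium became 38, 60 and 24 and then 60, 86 and 105 in the same order. Of the list genes called there, none of 9 in general capillary and 1 of 10 in venous endothelium, Plk2, passed with every library left out in turn, and Gdf15 in aerocytes passed in 1 of 6 such fits. These genes were named after their values were seen, and the part of these lists in the level of Cdkn1a was not tested.

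Over the 18 classes, edgeR called 0.664% of all pairs of a gene and a class, and the lists lay on both sides of that share. Cdkn2a accounted for all 6 calls among the 59 pairs of an INK4 gene and a class (10.2%), each time higher. Over all lists 8 of the 36 calls passed with every library left out in turn, among them Cdkn2a in alveolar fibroblasts alone of its 6 classes. The dissociation stress and immediate early genes gave 1 higher and 10 lower among 247 pairs (4.45%). The p53 targets gave 3 higher and 7 lower among 332 pairs (3.01%), the glucocorticoid-induced genes 2 lower among 188 (1.06%), the regulators of CIP/KIP transcription 3 lower among 303 (0.990%), the S and G2/M phase genes 2 lower (0.901%), and the pocket protein and E2F genes 1 lower among 199 (0.503%). The imprinted neighbours of Cdkn1c on chromosome 7 gave no call in 145 pairs, and neither did the protein turnover genes in 176 or the cyclin-dependent kinases in 77. Ccnd3 in general capillary endothelium, higher at 404 against 223 CPM, was the 1 call among 93 pairs of a cyclin and a class, and was named after its value was seen.

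Other leukocyte classes had lower Cdkn1a values with no overlap. CD8 T cells had 17.2, 14.5 and 16.9 CPM against 21.9, 19.9 and 21.8 CPM (log2 fold change −0.39, edgeR adjusted p = 0.407), and a stricter gate gave −0.15 (edgeR adjusted p = 0.884). Classical monocytes had 451, 458 and 425 CPM against 606, 502 and 488 CPM (−0.21, edgeR adjusted p = 0.486), and without control replicate 1 the value was −0.10. Neither class was called.

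For Cdkn1b the values of the groups lay close together. In neutrophils, its highest class, the values given above did not overlap, with a log2 fold change of 0.25 (SE 0.09, edgeR adjusted p = 0.518). In lymphatic endothelium it was at 85.2, 83.3 and 85.6 CPM against 112, 94.1 and 105 CPM (−0.31, edgeR adjusted p = 0.288). In B cells it was at 140, 147 and 141 CPM against 166, 163 and 158 CPM (−0.16, SE 0.04, edgeR adjusted p = 0.275). Alveolar fibroblasts had 60.4, 60.0 and 59.4 CPM against 65.7, 65.2 and 65.4 CPM, or −0.10 on the log2 scale (edgeR adjusted p = 0.243). Classical monocytes, the remaining class with no overlap, had −0.10. None of these passed, and the median over the 18 classes was −0.04.

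Cdkn1c had opposite signs in pericytes and in fibroblasts, with no call in either. In pericytes the values given above lay higher in all 3 p16-DTR libraries, with a log2 fold change of 0.36 (SE 0.13, edgeR adjusted p = 0.566), on 62, 63 and 68 cells against 119, 147 and 140. It was 0.21 without p16-DTR replicate 1. In alveolar fibroblasts it was at 26.6, 22.4 and 27.4 CPM against 33.5, 32.9 and 34.4 CPM. That log2 fold change was −0.37 (SE 0.08, edgeR adjusted p = 0.0636, with 1.35% of genes called). It was called by DESeq2 (adjusted p = 0.00301, with 9.25% of genes called) and by edgeR with no filter on low counts (adjusted p = 0.0352, with 2.52% of genes called). Adventitial fibroblasts had 69.0, 82.4 and 75.8 CPM against 108, 78.3 and 98.6 CPM, which overlapped (−0.33, edgeR adjusted p = 0.285; −0.22 without control replicate 1). Peribronchial fibroblasts had 81.5, 74.6 and 68.5 CPM against 97.0, 84.1 and 111 CPM, with no overlap (−0.33, edgeR adjusted p = 0.235). In general capillary endothelium, at 7.53, 6.94 and 7.40 CPM against 9.99, 8.58 and 9.73 CPM, the log2 fold change was −0.34 (edgeR adjusted p = 0.101). The fourth class with lower values and no overlap was alveolar type 2 cells (−0.11, edgeR adjusted p = 0.831). The median over the 16 tested classes was −0.33. It includes leukocyte classes with means of 1.83 to 3.30 CPM, where free RNA was not tested.

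Cells in the cycle were compared with other cells of the same class and library. A cell was taken as cycling when it had UMIs of at least 2 of the proliferation genes Mki67, Top2a, Cdk1, Birc5, Ube2c, Ccnb2, Cenpf and Nusap1, and 1938 such cells were set beside cells with none, with classes weighted by their cycling cells. Cdkn1a averaged 212 CPM in cycling cells and 188 CPM in the others, with log2 ratios of 0.07, 0.26 and 0.12 in p16-DTR and 0.13, 0.25 and 0.24 in controls. It was higher in 6 of 6 libraries (mean 0.18, exact two-sided sign-flip permutation test, p = 0.03125, the smallest that 6 libraries can give). Cdkn1b averaged 127 and 143 CPM, with log2 ratios of −0.06, −0.24 and −0.19 in p16-DTR and −0.20, −0.13 and −0.20 in controls. It was lower in 6 of 6 libraries (mean −0.17, exact permutation p = 0.03125). Adjusted over the 3 genes, both stood at an exact permutation p of 0.046875. Cdkn1c averaged 15.4 and 14.4 CPM (mean log2 ratio 0.09, higher in 5 of 6 libraries, exact permutation p = 0.28125).

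Cycling cells were also deeper, with a median of 30683 UMIs against 17710.5 in the others. With all cells thinned to 5000 UMIs before the split, Cdkn1a had a mean log2 ratio of 0.22 and was higher in 5 of 6 libraries (exact permutation p = 0.15625), and Cdkn1b had −0.22 and was lower in 5 of 6 (exact permutation p = 0.0625). Both kept their direction on 507 cells and neither passed. With at least 3 markers asked for, on 593 unthinned cells, Cdkn1a had a mean log2 ratio of 0.29 and Cdkn1b of −0.31, in 6 of 6 libraries each (adjusted exact permutation p = 0.046875), and Cdkn1c had −0.79, lower in 5 of 6 (exact permutation p = 0.0625).

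Cells with a UMI of Cdkn2a were compared with cells of the same class without one. There were 3467 such cells, of which 614 were aerocytes. Aerocytes had 292 in p16-DTR and 322 in controls, while alveolar fibroblasts had 576 and 19 and B cells 402 and 19. These are counts and not shares, since class sizes differed, with 406, 651 and 366 aerocytes in p16-DTR and 487, 642 and 678 in controls. Cdkn1a averaged 516 CPM in cells with Cdkn2a and 460 CPM in those without, with log2 ratios of 0.01, 0.12 and 0.10 in p16-DTR and 0.09, 0.26 and 0.26 in controls. It was higher in 6 of 6 libraries (mean 0.14, exact two-sided sign-flip permutation test, p = 0.03125), which did not pass once adjusted over the 3 genes (adjusted exact permutation p = 0.09375). In aerocytes alone the means were 1199 and 1057 CPM (mean log2 ratio 0.18, higher in 6 of 6, exact permutation p = 0.03125, adjusted 0.09375), and without aerocytes 225 and 194 CPM (0.20, higher in 4 of 6, exact permutation p = 0.1875). The latter log2 ratios were −0.07, 0.00 and 0.05 in p16-DTR and 0.21, 0.77 and 0.27 in controls, and their mean was 0.09 without control replicate 2. Cells with Cdkn2a had more UMIs, a median of 22475 against 18484. Thinned to 5000 UMIs, the mean log2 ratio of Cdkn1a was 0.09 and it was higher in 4 of 6 libraries (exact permutation p = 0.5625), on 1188 cells. Cdkn1b (mean log2 ratio −0.06, exact permutation p = 0.28125) and Cdkn1c (−0.36, exact permutation p = 0.09375) did not pass. Thinned, Cdkn1b had −0.15 and Cdkn1c −0.96 on the log2(CPM + 1) scale (exact permutation p = 0.09375 and 0.125), and in aerocytes alone Cdkn1c had −0.86 on that scale (exact permutation p = 0.0625), where its level was 1.28 and 3.00 CPM. A total of 3 genes was compared in each split, and the adjustment is that of Benjamini and Hochberg.

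**Figure D5:**
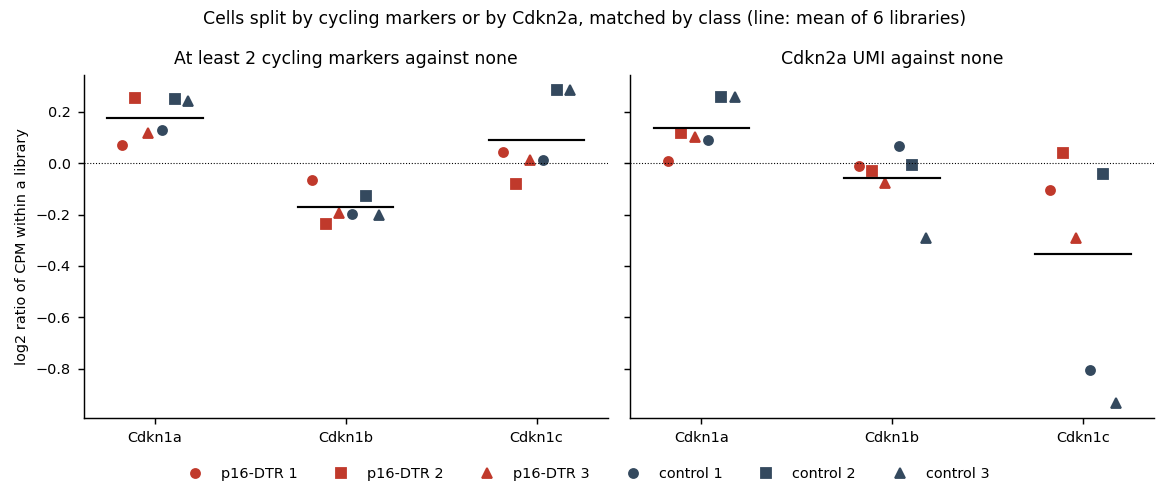
Log2 ratio of CPM within each library, for cells with at least 2 cycling markers against none (left) and with a Cdkn2a UMI against none (right), matched by class, with p16-DTR red, controls dark blue and a line at the mean of 6 libraries. On the left all 6 libraries lie above 0 for Cdkn1a and below 0 for Cdkn1b.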

How the data were processed

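The files are 6 raw 10x matrices of UMI counts per gene and cell, 1 library per mouse, which the authors made with Cell Ranger 8.0.1 on mm10, per the submitters' processing notes; further settings are not given in the sources used here. The cell filter asked for 300 genes and 500 UMIs or more, and for a mitochondrial share of 15% or less. Classes were gated by at least 3 of their markers, and T cells by CD3 and Trac markers with Cd4, Cd8 or delta-chain genes. Cells with 3 or more general markers of each of 2 lineages among endothelial, epithelial and immune were given no class. General mesenchymal markers were not part of that rule, and no doublet caller was run. Deposited counts were summed per library and class with at least 50 cells in every library (the interleukin 17-marked CD4 T cells, with 26, 7 and 27 in p16-DTR, were fitted below this minimum), and tested with edgeR 4.0.16 (R 4.3.3): quasi-likelihood, TMM, filterByExpr, group alone, Benjamini-Hochberg adjustment over all genes of a class, threshold 0.05. The replicate is the mouse, so p-values measure the spread between mice. CPM, shares and exact permutation tests were computed in Python 3.11.15 with numpy 2.4.6, scipy 1.17.1 and pandas 2.3.3, and figures drawn with matplotlib 3.10.9. DESeq2 1.42.0, other size factors, no filter on low counts, stricter cell filters and gates, thinning to 5000 or 2000 UMIs, a replicate block and leaving out each library were the alternatives. For shares, 2011 of 32501 p16-DTR and 2201 of 34842 control gated cells under 5000 UMIs were left out.

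The same-mix value weights the CPM of every class by its mean share of UMIs, and the own-mix value weights the mean CPM of every class by the library's shares. Neither value accounts for a different mix of cells inside a class or among the cells given no class. The gating, the member genes, the pathway lists and the interleukin 17 markers were chosen with earlier results of these data known. Beside the 3 members, the genes named are those of a pathway list called in a class where a member was called, up to 6 per list by smallest adjusted p, and for each member the 5 genes most like it; the glucocorticoid and stress lists were to be given as counts and medians. Genes named beyond this rule, in endothelial classes and in the stress and glucocorticoid lists, were chosen after their values were seen. 1 planned choice of markers for CD4 T subsets is not reported here, and the 3 markers used were chosen after seeing the data. The fits were tested on simulated counts with known changes. Sequences and coordinates are from GENCODE M21 on GRCm38, the assembly that mm10 names, where 30934 of the 31054 feature IDs matched.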

Additional observations from a re-analysis of the deposited data

Results flagged for a closer look

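In some classes all 3 p16-DTR libraries lay above all 3 controls for a gene, and in other classes all lay below. Each such difference between 2 classes' log2 fold changes is given, and none of them was tested as a difference between classes. For Cdkn1a, the log2 fold change in aerocytes exceeded that in CD4 T cells by 1.78, that in CD8 T cells by 0.83 and that in classical monocytes by 0.65. For Cdkn1b, the value in neutrophils exceeded that in B cells by 0.41, that in alveolar fibroblasts by 0.35, that in classical monocytes by 0.35 and that in lymphatic endothelium by 0.56. For Cdkn1c, the value in pericytes exceeded that in alveolar fibroblasts by 0.73, that in alveolar type 2 cells by 0.47, that in general capillary endothelium by 0.70 and that in peribronchial fibroblasts by 0.69. In aerocytes the lowest p16-DTR library (1054 CPM) and the highest control (1053 CPM) were nearly equal for Cdkn1a.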

How the results depend on the processing

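Over all cells, leaving out each library gave log2 fold changes of 0.29 to 0.52 for Cdkn1a, 0.08 to 0.17 for Cdkn1b and −0.71 to −0.52 for Cdkn1c, with no call in edgeR. Cdkn1c was called by DESeq2 (−0.63), which called 13.9% of genes, and Cdkn1b turned to −0.048 with the same mix of classes. Cdkn1a was called in 3 classes with no filter on low counts, in 2 with DESeq2, settings that called 1.55% and 3.05% of all pairs of a gene and a class against 0.664%, and in 0 once CD4 T cells with interleukin 17 markers were removed (CD4 T log2 fold change −0.039), and Cdkn1c in 1 class with no filter and in 1 with DESeq2. Without 1 library the CD4 T minus B difference ranged from −1.98 to −1.19. In cycling cells, thinning gave 0.22 for Cdkn1a, −0.22 for Cdkn1b and, on the log2(CPM + 1) scale, −0.67 for Cdkn1c. At least 3 cycling markers gave 0.29, −0.31 and −0.79. Both settings turned the sign of Cdkn1c, which was 0.09 in the main comparison. Leaving out each library gave 0.16 to 0.20, −0.19 to −0.16 and 0.05 to 0.13. For cells with Cdkn2a, Cdkn1a was 0.086 after thinning, 0.20 without aerocytes and 0.16 in thinned aerocytes alone, and Cdkn1b turned to 0.084 in aerocytes alone. Leaving out each library gave 0.11 to 0.16, −0.08 to −0.01 and −0.43 to −0.24. With 5 libraries the exact sign-flip permutation test cannot go below p = 0.0625. Where not given in the report, the cause of a change was not tested. Shares of cells with a UMI move with depth: thinned to 2000 UMIs they were 77.0% for Cdkn1a in aerocytes, 9.86% in CD4 T cells, 50.0% for Cdkn1b in neutrophils and 60.5% for Cdkn1c in pericytes, and without thinning 28.4% in CD4 T cells, 86.1% in neutrophils and 92.2% in pericytes. Of 188 values of main results under an alternative, 146 were scored as the same. Another 23 were weaker, 3 stronger, 12 moved and 4 reversed. The same meant an unchanged direction and side of 0.05, or a move within a set limit for values with no test. Leaving out 1 library could not take a mean CPM or a difference of mean log2 CPM past that limit. Those scores were fixed in advance. All 18 weaker values from leaving out a library were paired values, which cannot pass with 5 libraries. Such scores do not tell how firm a result is. All values scored as moved or reversed came from alternatives other than leaving out a library, where 58 of 80 were the same. Sign was not scored for values with no test. Thus Cdkn1a in CD4 T cells without an interleukin 17 marker counted as the same, though its sign turned without p16-DTR replicate 1. Paired values were scored on the unadjusted exact permutation p, and the same-mix exact permutation p cannot go below 0.1.

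The replicate numbers were not taken to pair the libraries: over all cells the deviations of same-numbered libraries correlated at 0.50, −0.10 and 0.45. CD8 T cells were the 1 of 18 classes in which all 3 correlations were over 0.1 (0.22, 0.20 and 0.16). With the replicate number as a block the log2 fold change over all cells was 0.41 for Cdkn1a, 0.14 for Cdkn1b and −0.64 for Cdkn1c, none of them called, and Cdkn1a in CD4 T cells was −1.33 (edgeR adjusted p = 0.0111). The block changed no call of a member, but called genes fell from 263 to 20 in general capillary and from 239 to 2 in venous endothelium. They rose from 9 to 47 in CD8 T cells (Cdkn1a −0.38, edgeR adjusted p = 0.322), 126 to 394 in peribronchial fibroblasts, 5 to 47 in natural killer cells, 0 to 19 in alveolar type 2 cells and 7 to 25 in arterial endothelium; CD4 T cells (598 to 425) and alveolar fibroblasts (225 to 298) moved by under 1.5 times. The precision is limited by 3 mice a group, by the lack of a batch label and by the 23.4% to 30.6% of cells given no class.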

Other observations

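Classes under 50 cells in some library carried further values, given with no test. Alveolar type 1 cells held 251, 61.3 and 89.9 CPM of Cdkn1a in p16-DTR and 56.2, 39.4 and 33.4 CPM in controls, with no overlap. Smooth muscle held 258, 141 and 555 CPM of Cdkn1a against 91.3, 184 and 213 CPM, which overlapped. Gamma-delta T cells, which can also make interleukin 17, held 147, 164 and 130 CPM of Cdkn1a against 216, 172 and 219 CPM, with every p16-DTR library below every control. Type 2 conventional dendritic cells had 73.1, 123 and 103 CPM of Cdkn1b against 140, 135 and 141 CPM, also with no overlap. These classes were picked for mention after their values were seen. The share of all genes with no overlap was not computed in them. In the 18 tested classes it was 7.94% with p16-DTR higher and 11.5% with p16-DTR lower. Cells per library numbered 28 to 78 for alveolar type 1, 48 to 88 for gamma-delta T and 25 to 61 for type 2 conventional dendritic cells.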
